A study of Mus musculus with 5 samples.

Results

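The sites described here are the ChIP-seq peaks of wild-type RNF12 over its control, which number 97272 on chromosomes 1 to 19 and X, out of 97602 in the deposited list for this protein and 291776 in the 3 peak lists of the series. Members were all rows of that list on those chromosomes, with no threshold on the measured values, and they were ranked by the fold over control at the summit. The cells were female mouse embryonic stem cells (mESCs) of the 129/Sv-Cast/Ei hybrid strain and the genotype Rlim+/- with FLAG-V5-RNF12 WT, so that 1 disrupted and 1 intact *Rlim* allele were present beside a tagged RNF12 expressed constitutively from the CAG promoter of a stably integrated vector. They were treated with 15 μM MG132, a proteasome inhibitor, for 3 h, crosslinked with 2 mM DSG, which links proteins to each other, for 45 min and then 1% formaldehyde for 10 min, sheared to fragments of 300 to 800 nt and precipitated with agarose that binds the V5 tag. The control was a library from WT mESCs of the same strain that carry no tagged protein. It came from cells with the same MG132 treatment and crosslinking, sheared to the same range. Its title calls it an input while its antibody label reads V5, so whether it is an input or a mock precipitation cannot be told from the labels. The group is a single library without replicates, so intervals cover counting error only, no test between conditions was possible, and peaks are not replicates. Peak positions carry no expression values, and the labelled cell type was therefore not checked against marker transcripts.

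RNF12, also called RLIM, is a RING-type E3 ubiquitin ligase encoded on the X chromosome. It is known for marking the zinc-finger transcription factor REX1 (ZFP42) for degradation by the proteasome, and for its dose-dependent part in starting X chromosome inactivation in female cells. Chromatin immunoprecipitation with crosslinkers of protein to protein and protein to DNA records where it is near DNA, directly or through other proteins. MACS2, the peak caller, compares the pile of fragments at each position with the pile that the control leads it to expect. Piles are given below as whole fragments of the ChIP library, and the expectation is on the scale of the pile multiplied by 0.7895, so the scaled pile is given beside each expectation.

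The sites with the highest fold over control lay at gene starts. The following runs were picked to show what summits look like in sequence and are no sample of the list. *Rad54l2*, *2610001J05Rik*, *Ap1g1*, *Adnp* and *Casz1* are among the 6 highest promoter summits, and none of the runs printed for them holds a string marked here. Runs were shifted off the summit where needed to leave out untranslated sequence, and that of *2610001J05Rik* misses a copy of ATGGCTGC that lies within 50 bp of its summit. *Commd2*, *N4bp2l2*, *Fignl1*, *Eif4a1* and *Zfp652*, at ranks 12, 14, 28, 41 and 45, were chosen as strong promoter summits whose runs hold one. The last 3 lead the sites outside genes. Each is the plus strand of mm10, 5′ to 3′, and holds the summit. Capitals mark copies of AAGATGGC (the YY1 string), GGGCGGGG (SP/KLF), GCGCATGCG and GCATGCGC (NRF1), ATGGCTGC and ATGGCGGC (forms of the REX1 motif), each on either strand, and overlapping copies run together.
Rad54l2, chr9:106789165-106789265: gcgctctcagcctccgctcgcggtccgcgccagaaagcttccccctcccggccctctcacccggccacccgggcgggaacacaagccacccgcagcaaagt
2610001J05Rik, chr6:13871489-13871589: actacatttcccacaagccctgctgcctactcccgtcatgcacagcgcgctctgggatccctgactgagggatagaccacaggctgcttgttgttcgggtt
Ap1g1, chr8:109778483-109778583: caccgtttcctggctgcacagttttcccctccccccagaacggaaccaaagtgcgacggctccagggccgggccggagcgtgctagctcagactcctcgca
Adnp, chr2:168207391-168207491: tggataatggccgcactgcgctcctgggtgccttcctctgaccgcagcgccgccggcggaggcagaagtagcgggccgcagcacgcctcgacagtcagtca
Casz1, chr4:148804261-148804361: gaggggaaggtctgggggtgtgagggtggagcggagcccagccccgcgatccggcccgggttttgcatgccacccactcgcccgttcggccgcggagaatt
Commd2, chr3:57651689-57651789: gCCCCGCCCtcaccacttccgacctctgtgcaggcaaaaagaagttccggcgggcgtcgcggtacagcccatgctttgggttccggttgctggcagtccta
N4bp2l2, chr5:150665583-150665683: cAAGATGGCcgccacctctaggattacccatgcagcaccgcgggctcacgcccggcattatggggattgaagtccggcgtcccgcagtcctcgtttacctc
Fignl1, chr11:11808963-11809063: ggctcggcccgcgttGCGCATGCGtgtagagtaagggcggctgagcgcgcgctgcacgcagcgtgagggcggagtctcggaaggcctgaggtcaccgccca
Zfp652, chr11:95712579-95712679: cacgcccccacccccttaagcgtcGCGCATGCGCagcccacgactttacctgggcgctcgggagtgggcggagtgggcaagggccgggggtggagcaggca
Eif4a1, chr11:69672550-69672650: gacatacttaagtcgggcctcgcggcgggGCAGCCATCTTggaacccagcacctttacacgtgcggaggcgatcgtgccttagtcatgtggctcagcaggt
Rasgrf1 upstream, chr9:89879736-89879836: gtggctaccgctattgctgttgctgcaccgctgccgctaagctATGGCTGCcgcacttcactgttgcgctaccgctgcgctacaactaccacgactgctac
Papolg upstream, chr11:23904041-23904141: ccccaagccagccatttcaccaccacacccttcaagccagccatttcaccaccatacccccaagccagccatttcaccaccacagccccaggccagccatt
Gm6858 downstream, chrX:73053912-73054012: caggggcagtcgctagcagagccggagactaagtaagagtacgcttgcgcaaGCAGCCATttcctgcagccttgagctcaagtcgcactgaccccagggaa

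The highest fold over control, 20.7, was at the start of *Rad54l2*, which encodes a helicase of the SNF2 family. Its peak spanned chr9:106788793-106789280 in mm10, and the summit lay 5 bp upstream of an annotated transcription start site (TSS). The pile there held 61 fragments, with an exact Poisson 95% interval of 46.7 to 78.4, or 48.2 scaled, against 1.38 expected from the control. *Cops7b*, a subunit of the COP9 signalosome, followed at 19.4 with 57 fragments and a summit 14 bp inside the gene. *2610001J05Rik* reached 19.3, *Ap1g1*, the gamma subunit of the AP-1 clathrin adaptor, 19.03, and *Adnp*, a homeobox protein of chromatin, 19.01. *Casz1*, a zinc-finger transcription factor, had a fold of 18.4, *Secisbp2l* 17.7, the nucleoporin gene *Nup54* 17.4, and *Wdr43*, a component of the small ribosomal subunit processome, 17.4. These were the genes of the 9 highest peaks, and each summit was within 329 bp of a TSS.

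The next places in the list were *Gm49437* (16.4), *Mir670hg* (16.3), *Commd2* (16.3), the myotubularin phosphatase gene *Mtmr2* (16.04), *N4bp2l2* (15.95) and *Frmd4a* (15.9). All 15 of the 15 highest summits lay within 1 kb of a TSS, and the 32 bases at each occurred at a single place in the genome. The 43 fragments at *Frmd4a* had an interval of 31.1 to 57.9, which overlaps that of *Rad54l2*, so the order among these sites is not resolved by the count. Among protein-coding genes with a summit within 1 kb of a TSS, the 10 highest were *Rad54l2*, *Cops7b*, *2610001J05Rik*, *Ap1g1*, *Adnp*, *Casz1*, *Secisbp2l*, *Nup54*, *Wdr43* and *Commd2*.

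Away from gene starts the list was led by a site 30122 bp upstream of *Rasgrf1*, an imprinted guanine nucleotide exchange factor gene, with a fold of 15.8 and 48 fragments (37.9 scaled) against 1.46 expected. It was 17th in the list, and its run above holds the first form of the REX1 motif. The site 8838 bp upstream of *Papolg* (14.5) lay in a tandem repeat in which CAGCCAT, the reverse complement of ATGGCTG, occurs 4 times in the run printed above. The *Gm6858* site on the X chromosome reached 14.2 and the site 1694 bp upstream of the nuclear receptor gene *Nr4a3* 14.1. In a coding exon the highest was *Apold1* (14.03), and in introns *Cpeb3* and *She* (13.4 each) and the imprinted gene *Peg10* (13.0). These sites away from starts were chosen for their place in the list after its values were seen. Peaks with a fold of at least 10 numbered 621, and 525 of them, 84.5% (Wilson 95% interval 81.5 to 87.2%), lay within 1 kb of a TSS.

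Over all 97272 peaks the fold ran from 1.39 to 20.7 with a median of 4.59, and the central 80% of peaks lay between 3.19 and 6.64. The median width was 126 bp, and 8286 peaks had the smallest width, 86 bp. The fold and the p-value of MACS2 hold both counts behind a peak, with a second solution at 2.1% of peaks. The pair at each of the 97272 peaks was reproduced by a whole number of ChIP fragments scaled by 0.7895 and an expectation from the control. The median pile was 19 fragments (quartiles 15 and 23), or 15 scaled, against a median expectation of 2.15. The typical peak thus rests on few fragments. At 9739 peaks (10%) the expectation was 1.14, the floor that the caller takes from the genome as a whole.

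Piles were large at both ends of the range of folds. In the 10% of peaks with the lowest fold, the lowest decile, the median pile was 23 fragments (18.2 scaled) against 6 expected, and in the highest decile it was 24 (18.95 scaled) against 1.63. The smallest median pile, 15 (11.8 scaled), was in decile 4. Over all peaks the rank correlation (Spearman) of the fold was 0.11 with the pile and -0.65 with the expectation, so the order by fold is not an order by pile. Where the fold was lowest, the 32 bases at the summit occurred more than once in the genome for 50% of peaks, against 5.85% where it was highest, and the part of repeated sequence in the low folds was not tested. The plot of deciles by fold shows both quantities.

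**Figure D1:**
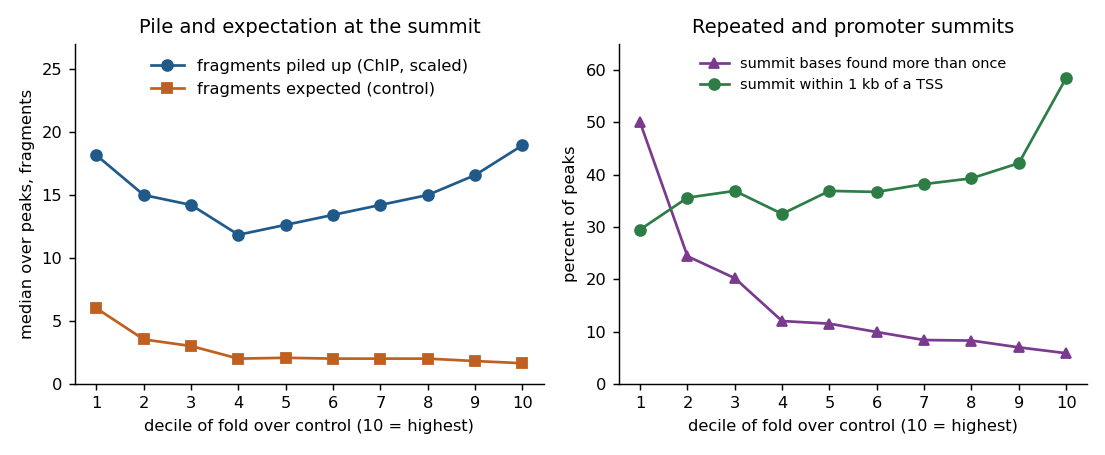
Peaks were split into deciles by fold over control, from lowest (1) to highest (10). The left panel plots the median scaled ChIP pile and the median expectation from the control in fragments, with scaled piles of 18.2 and 18.95 at the ends and 11.8 in decile 4, and the right panel plots the percent of peaks with repeated summit bases (50% falling to 5.85%) and with a summit within 1 kb of a TSS (29.5% rising to 58.5%).

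Gene starts held 38.6% of the summits (38.3 to 38.9%) within 1 kb of a TSS, on 6.13% of the bases of these chromosomes. In the highest decile by fold the share was 58.5% (57.5 to 59.4%), and among the 1000 highest peaks 80.7% (78.1 to 83.0%). Summits in a coding exon beyond 1 kb of a TSS made up 9.17% of the list on 0.978% of the bases. This ratio of 9.37 was above the ratio of 6.30 at gene starts over the whole list. In the highest decile the order was the other way, with 6.2% of summits in coding exons and 58.5% at gene starts on the same bases. Over the whole list other exons held 3.28% of summits on 2.29% of bases. Introns, with 25.2% of summits on 39.4% of bases, and sequence outside genes, with 23.7% on 51.2%, held fewer summits than their share of bases. Promoter peaks had a median pile of 21 fragments and a width of 160 bp, against 17 fragments and 111 bp in introns. Coding exons and introns differed little in fold, with medians of 4.58 and 4.58, but 17.4% of intron summits and 36.7% of summits outside genes had repeated bases, against 3.02% in coding exons.

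**Figure D2:**
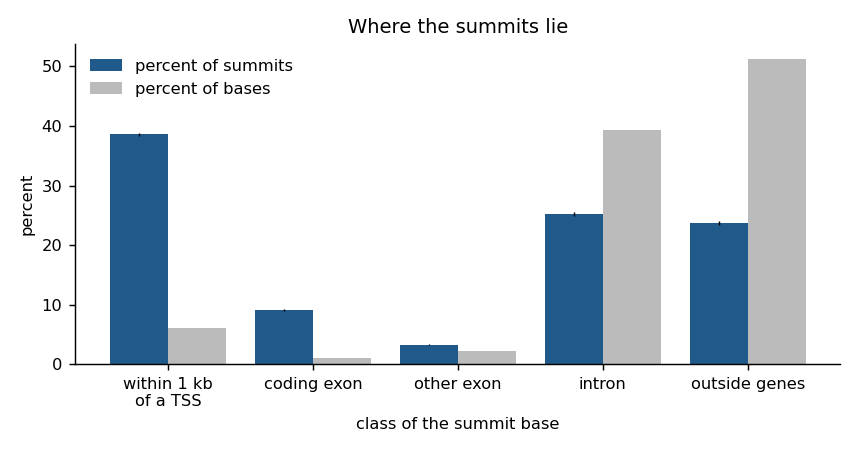
For each class of the summit base, the blue bar is the percent of the 97272 summits with its Wilson 95% interval and the grey bar is the percent of non-N bases of chromosomes 1 to 19 and X in that class. The blue bar exceeds the grey bar at gene starts (38.6% against 6.13%) and in coding exons (9.17% against 0.978%), and lies under it in introns and outside genes.

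The summits were centred on the start itself. Within 150 bp of a TSS lay 17.9% of all summits (17.6 to 18.1%), 36.3% of those in the highest decile (35.4 to 37.3%) and 11.5% of those in the lowest (10.9 to 12.2%). Of the 24994 summits within 300 bp of a TSS, 57.7% (57.1 to 58.3%) lay on its downstream side. In the highest decile the sides were closer to even, with 52.3% (50.8 to 53.7%) downstream. The 50-bp bin with the most summits of the highest decile ended at the TSS on its upstream side and held 10.4% of them, while the other peaks had most in the first 50 bp downstream, 3.73%. Among summits within 1 kb of a TSS, the nearest gene was protein-coding for 84.5%, an antisense gene for 3.20%, a processed pseudogene for 3.05% and a lincRNA for 2.98%.

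**Figure D3:**
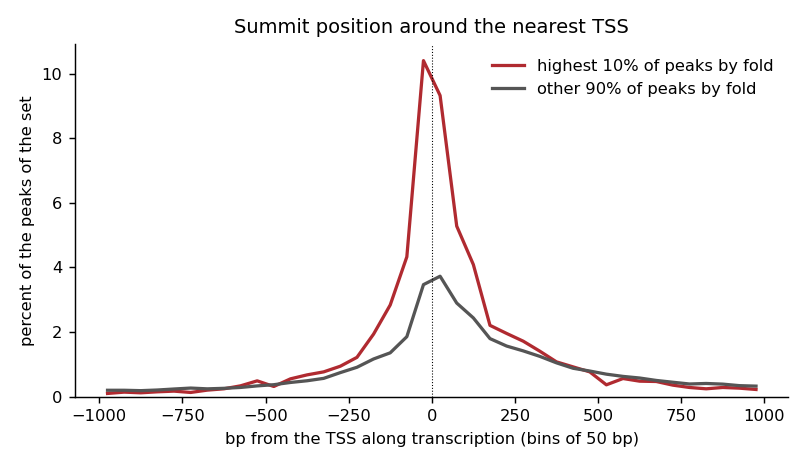
The x axis is the position of the summit relative to the nearest TSS in bp along the direction of transcription, in bins of 50 bp, and the y axis is the percent of the peaks of each set. The highest decile by fold (red) peaks at 10.4% in the bin just upstream of the TSS, and the other peaks (grey) reach 3.73% just downstream.

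In the whole list nearly every gene with a CpG-rich start had a peak there, a share that fell when weak peaks were left out. A summit lay within 1 kb of a TSS for 14992 of 21755 protein-coding genes (68.9%) and for 20588 of 53843 annotated genes of all kinds (38.2%). TSS positions were called CpG-rich when the surrounding 500 bp on each side held at least 55% G or C and a CpG ratio, observed over expected, of at least 0.65. Of 29920 such positions 29377 had a summit within 1 kb, 98.2% (98.0 to 98.3%), against 31.2% of the 100668 others. With the list limited to its 20000 best peaks by −log10 q, the share of CpG-rich positions was 64.6% and the count of protein-coding genes 8791. Of 9272 protein-coding genes with a CpG-rich TSS 98.5% had a summit, with a median highest fold of 6.17, and of the 12483 without one 46.9%, with a median of 5.42. With and without a divergent protein-coding neighbour within 1 kb the shares of CpG-rich genes had overlapping intervals, 98.9% (98.3 to 99.3%) with and 98.4% (98.1 to 98.7%) without. Of the genes with a summit 10133 (67.6%) had more than 1 within 1 kb.

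Sites away from starts were also rich in G and C, but less so than those at starts. The bases within 50 bp of the summit had a median of 62.4% G or C over all peaks, 65.35% over those within 1 kb of a TSS and 61.4% over those beyond it, where the flanks 300 bp away had a median of 50%. The lowest 10% of all summits by this measure lay under 56.4%, a level that 5.56% of genome tiles of the same length reached. At 90.5% of peaks the summit was richer in G and C than the mean of its flanks. The part of base composition in these piles was not tested.

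Gene groups were then read against the 68.9% of all protein-coding genes. Every named member of 5 lists had a summit within 1 kb, namely 33 of 33 genes of the proteasome list, 22 of 22 heat shock and chaperone genes, 26 of 26 Polycomb genes, 32 of 32 translation factor genes and 20 of 20 genes of the primed state and early lineages. Besides subunit genes the first of these lists holds the transcription factor genes *Nfe2l1* and *Nfe2l2*. The proteasome list was led by *Psma2* (9.72), *Psma1* (9.58) and *Psmb5* (9.28), which encode subunits of the 20S core, the particle that MG132 inhibits. The chaperone list was led by *Hspd1* and *Hspe1*, the mitochondrial chaperonin pair transcribed from a shared promoter, through the same peak (15.6), and by *Hspa8* (9.28). *Mtf2* (13.9), *Pcgf6* (10.3) and *Jarid2* (10.1) led Polycomb, and the initiation factors *Eif4a1* (13.7), *Eif2s2* (13.0) and *Eif4a2* (12.3) led translation. *Gata6* (7.48), *Otx2* (7.41) and *Foxa2* (7.33), transcription factors of early lineages, had lower folds. A CpG-rich TSS was present at 25 of 26 Polycomb genes, 18 of 20 lineage genes, 21 of 22 chaperone genes, 28 of 32 translation factor genes and 22 of 33 genes of the proteasome list. Of all protein-coding genes with such a TSS 98.5% had a summit. The 11 members of the proteasome list without such a TSS, *Nfe2l2* among them, all had a summit, against 46.9% of all protein-coding genes without such a TSS.

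Ribosomal protein, respiratory chain and histone genes were nearly as complete, against 68.9% of all protein-coding genes. Cytosolic ribosomal protein genes had a summit at 79 of 82, led by *Rpl13a* (10.4), *Rpl23a* (9.84) and *Rpl21* (9.34) and without one at *Rpl10*, *Rpl32* and *Rps26*. Mitochondrial ribosomal protein genes had one at 75 of 78, led by *Mrpl40* (14.8), *Mrpl39* (13.5) and *Mrpl45* (12.9), and none at *Mrpl10*, *Mrpl16* and *Mrpl24*. Respiratory chain genes had one at 90 of 95, with *Uqcrb* and *Ndufs4* at 14.1 each and *Ndufab1* at 12.4, and none at *Cox7b2*, *Cox8b* and *Cox8c* among others. Replication-dependent histone genes had one at 64 of 67, led by *Hist2h4* (13.4), *Hist1h4b* (12.2) and *Hist1h3c* (11.95), with none at *Hist1h1b*, *Hist1h1d* and *Hist1h2be*. The summit bases at *Hist1h4b* occur 11 times and those at *Hist1h3c* 9 times in the genome, so reads there cannot be placed on a single member of the family. The same holds for the highest summit of most other histone genes of the list, with up to 21 copies at *Hist2h2aa1*. Several neighbouring histone genes also share a peak, such as *Hist1h2ak* and *Hist1h2bn*. The histone counts are therefore mostly not results for separate genes. Among members with no CpG-rich TSS a summit was present at 35 of 38 histone, 30 of 33 mitochondrial ribosomal and 35 of 40 respiratory chain genes. For cytosolic ribosomal genes it was 14 of 16. Of all protein-coding genes with no CpG-rich TSS 46.9% had a summit.

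Transcription factor families were also read against the 68.9% of all protein-coding genes. The Zfp genes, a family of zinc-finger proteins, had a summit at 324 of 394, 82.2% (78.2 to 85.7%), led by *Zfp652* (13.4), *Zfp866* (13.0) and *Zfp708* (13.0), and none at *Zfp101*, *Zfp160* and *Zfp27* among others. Hox genes had one at 38 of 39, led by *Hoxb9* (9.23), *Hoxa9* (9.08) and *Hoxc5* (7.97), and *Hoxb2* was the member without. With a CpG-rich TSS, 153 of 154 Zfp and 23 of 23 Hox genes had a summit, against 98.5% of all protein-coding genes of this class. Without one it was 171 of 240 Zfp and 15 of 16 Hox genes, against 46.9%.

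Olfactory and vomeronasal receptor genes had few peaks. A summit lay near 28 of 1093 olfactory receptor genes, 2.56% (1.78 to 3.68%), led by *Olfr414* and *Olfr1099* (6.37 each) and *Olfr322* (6.01), with none at *Olfr1*, *Olfr10* and *Olfr1000* among others. Vomeronasal receptor genes had 1 of 327, at *Vmn1r4* (4.198), which is also their only member with a CpG-rich TSS, and none at *Vmn1r1*, *Vmn1r10* or *Vmn1r100* among others. The clustered protocadherins had 21 of 57 (36.8%, 25.5 to 49.8%), led by *Pcdhgb7* (9.08), *Pcdhb1* (7.11) and *Pcdhga3* (6.39), with none at *Pcdha12*, *Pcdha2* and *Pcdha3* among others. Of the 55 protocadherins with no CpG-rich TSS 19 had a summit, to be read against the 46.9% of all protein-coding genes with no such start. The interval of the whole list, which also holds 2 genes with a CpG-rich TSS, spans that share. The genes of differentiated tissues, listed as silent in mESCs, had 19 of 30 (63.3%, 45.5 to 78.1%), led by *Krt10* and *Snap25* (7.11 each) and *Mbp* (6.91), with none at *Alb*, *Amy2b* and *Apoa1*. That share has an interval that spans the 68.9% of all genes, and only 1 of these 30 genes has a CpG-rich TSS. Of the 29 others 18 had a summit, to be read against the same 46.9%.

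**Figure D4:**
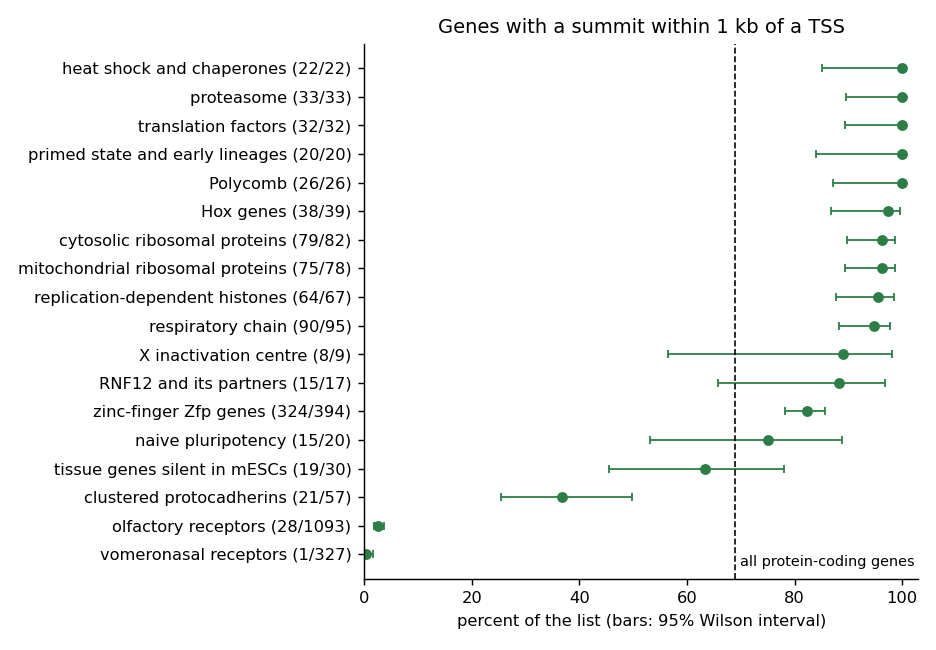
Each point is the percent of a gene list with a summit within 1 kb of a TSS, with its Wilson 95% interval and the counts in brackets, and the dashed line marks the 68.9% of all protein-coding genes. Housekeeping, Polycomb and lineage lists lie at 94.7 to 100%, and olfactory (2.56%) and vomeronasal (0.306%) receptors lie at the other end.

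Most genes of the X inactivation centre had a summit. Of 9 annotated genes 8 had a summit within 1 kb of a TSS (88.9%, 56.5 to 98.0%), an interval that spans the 68.9% of protein-coding genes and lies above the 38.2% of all annotated genes, with a median highest fold of 7.75 against 5.89 over all protein-coding genes with a summit, although only 2 of the 9 have a CpG-rich TSS. *Chic1* had the highest fold (10.1), followed by *Tsix*, the antisense repressor of *Xist* (9.81), the noncoding genes *Ftx* (9.81) and *Jpx* (8.49), *Xist*, the RNA that coats the inactive X (7.01), *Nap1l2* (5.58), *Cdx4* (4.99) and *Rlim* (4.79), and *Tsx* had none. The *Xist* site was narrow, 86 bp, with 18 fragments (14.2 scaled) against 1.17 expected and a summit 9 bp inside an annotated start. *Tsix* had 3 peaks. The first, 227 bp upstream of a TSS, had a fold of 6.12, the second, 41 bp downstream, 9.81 with 40 fragments, and the third, 1544 bp downstream in an exon, 8.53. The third had the largest pile of the region, 96 fragments (75.8 scaled) against 8 expected over 1015 bp, and its summit bases occur 5 times in the genome. Of the 4 *Ftx* peaks 2 hold the NRF1 string, at folds of 9.81 and 7.44.

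The next list holds the gene of RNF12 itself, genes of proteins tied to it and, in *Usp26*, *Unc13a* and *Kif1a*, genes known as regulated through RNF12 and REX1 rather than as partners. *Rlim* lies at chrX:103957163-103981284 on the minus strand and overlapped 2 peaks, 129 bp upstream (fold 4.79, 23 fragments) and 362 bp downstream (4.59, 22 fragments) of its start, both against 3 expected and with scaled piles of 18.2 and 17.4. No peak overlapped its coding exons, the part whose sequence the integrated vector also carries. *Zfp42*, which encodes REX1, had no summit within 1 kb of a TSS, but had 1 in an intron 1116 bp downstream of a start (5.58, 27 fragments) and a weaker 1 26730 bp upstream (4.16, 10 fragments). The ligase gene *Rnf6*, the closest relative of *Rlim*, had a fold of 8.76 and *Ldb1*, the LIM-domain cofactor that RNF12 was first described to degrade, 8.14. The others were *Usp26* (7.68), *Smad7* (7.09), *Unc13a* (6.91), *Myc* (6.83), the corepressor genes *Sin3a* (6.16) and *Hdac2* (5.43), *Lhx2* (6.12), *Lmo2* (5.92), the telomere protein gene *Terf1* (5.58), *Yy2* (4.71), *Yy1* (3.99) and *Kif1a* (3.93). *Ldb2* had none, so that 15 of 17 genes of this list had a summit (88.2%, 65.7 to 96.7%), an interval that spans the 68.9% of all protein-coding genes. All 12 members with a CpG-rich TSS had a summit, against 98.5% of all protein-coding genes with such a TSS. Of the 5 other members 3 had a summit, against 46.9% of all protein-coding genes with no CpG-rich TSS.

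The naive pluripotency genes were mixed. A summit lay within 1 kb of a TSS for 15 of 20 (75%, 53.1 to 88.8%), an interval that spans the 68.9% of all protein-coding genes, and the median highest fold of 5.44 was under the 5.89 of all. *Sall4* (7.38), *Tbx3* (6.96), *Nr0b1* (6.17), *Pou5f1* (6.04), which encodes OCT4, *Nr5a2* (6.01) and *Sox2* (6.001) led the list. *Prdm14* (5.66), *Utf1* (5.44), *Tdgf1* (5.33), *Klf4* (5.22), *Klf5* (5.08), *Klf2* (4.94), *Stat3* (4.79), *Tfcp2l1* (4.58) and *Esrrb* (3.85) followed. *Dppa2*, *Dppa3*, *Dppa4*, *Nanog* and *Tcl1* had no summit within 1 kb, and none of these 5 has a CpG-rich TSS. All 9 members with a CpG-rich TSS had a summit, against 98.5% of all protein-coding genes with such a TSS. Of the 11 other members 6 had a summit, against 46.9% of all protein-coding genes with no CpG-rich TSS. *Klf4* had 8 summits within 1 kb of its starts, the most in the list.

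Counted by nearest TSS, 31066 of 53843 genes had at least 1 peak, 11253 had exactly 1 and 5964 had 5 or more. The last count depends on weak peaks, since it was 1357 among peaks with a −log10 q of at least 5 and 160 among the 20000 with the highest −log10 q. Those 5964 genes held 50% of all peaks, and the stretch of genome nearest to them was longer, with a median of 54.7 kb against 25.7 kb for genes with 1 peak. The genes with the most peaks were of separate kinds. *Atg7*, an autophagy enzyme gene, had 84 peaks and *Hrh1*, a histamine receptor gene beside it, 55, with median expectations of 13.1 and 14 fragments, and the summit bases were repeated at 95.2% and 83.6% of them. The same held for *Rny3* and *Gm25283* (53 each, with median piles of 110 and 115 fragments, 86.8 and 90.8 scaled, against 38 and 41 expected) and for *Gm20586* (49, 91.8% repeated). In contrast *Gse1* (71), *Camta1* (66), *Zfp423* (49), *Tnrc18* (48) and *Rbfox3* (48) had median folds of 4.48 to 4.92, expectations of 1.99 to 3.00 fragments and repeated bases at 0 to 10.4% of their peaks. *Gse1*, a gene of the LSD1 and HDAC corepressor complex, had 15 of its 71 peaks within 1 kb of a TSS and a highest fold of 8.82.

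The same division was seen along the genome. Of 26350 windows of 100 kb, 18899 (71.7%) held a peak, with a median of 3. The fullest window, chr8:123500001-123600000, is the array of 5S ribosomal RNA genes and held 124 peaks at a median fold of 2.82, with 61 fragments (48.2 scaled) against 16 expected and repeated bases at 94.4%. The *Atg7* and *Hrh1* window, chr6:114500001-114600000, held 85 at 2.63. The third, chr3:89300001-89400000, around *Zbtb7b*, *Efna3* and *Adam15*, held 55 peaks at a median fold of 4.40, 35 of them within 1 kb of a TSS, with repeated bases at 1.82%. The fourth, chr8:70800001-70900000, around *Arrdc2*, *Kcnn1* and *Ccdc124*, held 54 at 4.31, and the neighbouring *Gm25283* and *Rny3* windows were tied next with 53 each, at 2.18 and 2.15.

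Peak density differed between chromosomes from 19.6 per Mb on chromosome 12 and 20.1 on X to 67.4 on chromosome 11, with a median of 38.7. On X the density of CpG-rich TSSs of protein-coding genes was the lowest, 2.91 per Mb, and 473 of 475 of them (99.6%) had a summit within 1 kb. On chromosome 12 their density was ordinary, 9.07 per Mb, but 902 of 1061 had a summit, 85.0% (82.7 to 87.0%). Chromosome 10 was next with 94.7% (93.4 to 95.8%), and the others lay between 98.1 and 99.8%.

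The deficit on chromosome 12 lay almost entirely in its distal part, a division made after the values were seen. Up to 75 Mb, 495 of 498 CpG-rich TSSs had a summit (99.4%, 98.2 to 99.8%), against 407 of 563 beyond it (72.3%, 68.5 to 75.8%). The 156 starts without a summit beyond 75 Mb were 32.7% of the 477 such starts on all chromosomes. Peak density fell from 24.0 to 12.4 per Mb across the step, while the density of CpG-rich TSSs rose from 6.92 to 12.5. At summits with bases found at a single place, the median expectation from the control was 2 fragments up to 75 Mb, as on the other chromosomes, and 4 beyond it, and the median fold fell from 4.89 to 3.80. The median ChIP pile at these summits also rose, from 18 fragments (14.2 scaled) to 23 (18.2 scaled). The expectation was at least 3.01 in each of the 7 bins of 5 Mb beyond the step with 20 or more such peaks, and at most 2.32 in the 14 before it. On other chromosomes the median over 467 bins was 2, with the highest at 3.89 in a bin of 20 peaks on X. *Esrrb* and *Yy1* and the imprinted gene *Meg3* lie beyond the step, with expectations of 5, 4 and 6 fragments beside their folds of 3.85, 3.99 and 3.41. Whether the tagged line, the control cells or both differ there was not tested.

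**Figure D5:**
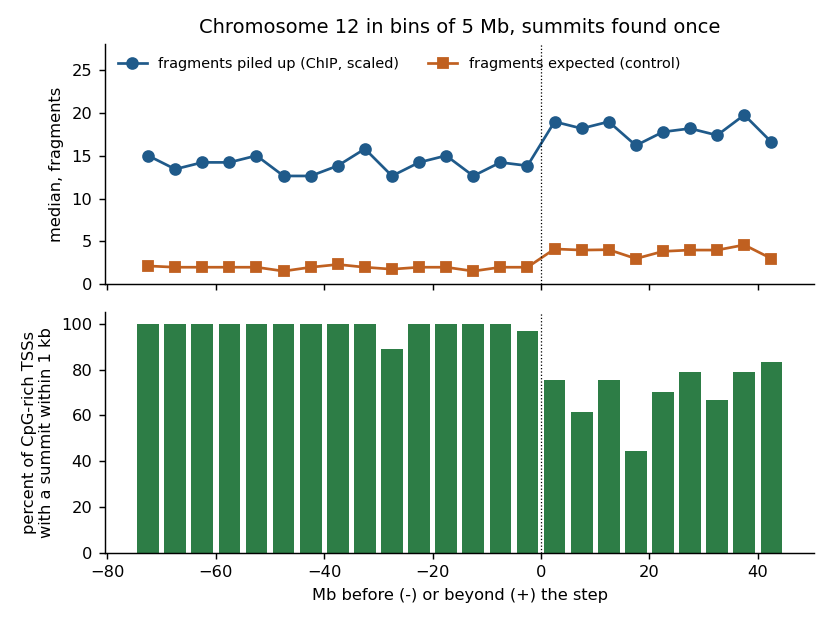
Chromosome 12 in bins of 5 Mb, with the x axis in Mb before or beyond the step at 75 Mb. The upper panel plots the median scaled ChIP pile and the median expectation from the control at single-place summits. The expectation rises from about 2 to 3 or more fragments at the step, and the lower panel plots the percent of CpG-rich TSSs with a summit within 1 kb, at least 88.9% before the step and 44.4 to 83.3% beyond it.

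Short strings at the summits were counted in windows of 50 bp to each side and set against windows of the same length centred 300 bp to each side. A match describes the letters and not a bound factor. Summit windows had a median of 62.4% G or C against 52.5% in flank windows, and the part of base composition in the ratios was not tested. The full NRF1 string, GCGCATGCG, was in 0.502% of all summit windows against 0.120% of flanks, a ratio of 4.17, the highest of the 20 strings that were listed for this count. In the 500 promoter peaks with the highest fold it was in 5.0% against 0.400%, and the ETS string CCGGAAGT was in 4.8% against 0.500%. *Fignl1* (14.5), *Zfp652* (13.4), *Ints13* (13.0), *Ppp1r37* (12.8), *Mettl22* (12.7) and *Cherp* (12.2) had the highest folds among promoter summits with the NRF1 string. The REX1 forms ATGGCTGC and ATGGCGGC were in 1.20% and 0.796% of all summit windows, at ratios of 2.41 and 2.40, and in 4.6% and 4.2% of those 500.

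The CpG-rich starts that had no summit offer a comparison that does not use the flanks. Of these starts 32.7% lie on chromosome 12 beyond 75 Mb. There the median expectation from the control at single-place summits was 4 fragments, against 2 on the other chromosomes. The part of that region in the shares was not tested. In windows of the same length centred on the TSS, CCGGAAGT was in 4.33% of the 27293 positions of protein-coding genes with a summit and 1.05% of the 477 without, and GCGCATGCG in 1.67% and 0.629%. The REX1 form ATGGCTGC was in 1.12% and 0.419% and the form ATGGCGGC in 4.65% and 3.98%. The SP/KLF string GGGCGGGG was equally common in both, 16.1% and 16.1%, and CCAAT nearly so, 9.42% and 9.85%. With 477 positions a share of 1% stands for about 5 of them. TATAAA was rare at all summits, 0.370% against 3.81% of flanks, and so was the OCT4 octamer ATGCAAAT, 0.125% against 0.363%. Both strings are rich in A and T, and the flanks had a lower median of G and C than the summits. The E-box CAGCTG (10.9%, ratio 1.95), CACCTG (16.7%, 1.64) and CAGCAGC (11%, 2.16) were the more common strings away from starts, where CAGCTG was in 12% and CAGCAGC in 11.9% of windows. The strings GCATGCGC, CCACGCCC and CCAGCAGC were added after the summit windows had been read. In the highest decile beyond 1 kb of a TSS the last 2 were in 3.00% and 3.86% against 0.532% and 0.916% of flanks.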

How the data were processed

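ChIP-seq was made from 1 library of V5-precipitated wild-type RNF12 and called over 1 control library. Per the study's methods, the authors trimmed reads (Trim Galore 0.6.7), aligned them (Bowtie2 2.5.0) to mm10 with the 129/Sv and Cast/Ei variants masked, assigned them to alleles with SNPsplit, which also made the masked genome, merged the allele and unassigned reads (SAMtools 1.10) and called narrow peaks with default settings (MACS2 2.2.7.1). The versions are also in the submitters' processing notes. The deposited list gives the fold over control (a ratio, scaled pile plus 1 over expectation plus 1), the −log10 p-value and the −log10 q-value. The score column was not used, and 238 peaks on Y and 92 on scaffolds were left out. Read totals are not in the list, so depth is known only as the piles recovered from fold and p-value (tolerance 0.001 in −log10 p, 2.1% of peaks with a second solution).

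Summits were assigned to the nearest of 130588 TSS positions of GENCODE M21 (mm10, the build of the files), and genome sequence came from RefSeq GRCm38.p6, soft-masked. Copies of the 32 bases at each summit were counted on both strands. Genes were counted by identifier, and *Atp5o* and *Pcdha11* each have 1 identifier with a summit and 1 without. Counts carry Wilson 95% intervals. Steps ran in Python 3 with numpy and pandas, and the recovery, copy and string counts were tested on simulated data. Alternatives were the −log10 q minimum, single-place summits, merged peaks, protein-coding TSSs, other distances and other string windows. Named genes were the 15 highest peaks, the 10 genes with the most peaks, the 10 protein-coding genes with the highest fold near a TSS, the 5 fullest windows of 100 kb (6 with a tie), all members of 3 lists, and for other lists the 3 highest and up to 3 without a summit. Members, lists, strings and rules were chosen with earlier results of these data known. A gene of the X inactivation centre is not reported here.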

Additional observations from a re-analysis of the deposited data

Results flagged for a closer look

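Outside the chromosomes described, the wild-type RNF12 list held 238 peaks on chromosome Y, although the line is labelled female, with a median fold over control of 3.37 and a highest of 8.03. They are given as a signal in data that the comparisons do not use.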

How the results depend on the processing

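Of 61 values of the 10 main results under the alternatives, 24 stayed within their interval (for counts, within 1.5 times) and 37 moved. With −log10 q of at least 2 the median fold was 4.75, the share of summits within 1 kb of a TSS 39.2% and that of CpG-rich TSSs with a summit 97.8%. With at least 5 there were 43473 peaks, a median fold of 5.66, a median width of 149 bp, 47.0% within 1 kb, 68.2% in the highest decile, 11.2% in exons beyond 1 kb, 1357 genes with 5 or more peaks and 86.2% of CpG-rich TSSs. The 20000 peaks with the highest −log10 q gave 6.58, 188 bp, 56.5%, 75.8%, 9.38%, 8791 protein-coding genes, 160 genes with 5 or more peaks and 64.6% in the same order. Fewer peaks enter these 3 settings by construction. Single-place summits gave a median fold of 4.81, 43.3% within 1 kb, 61.8% in the highest decile, 14.2% in exons, a chromosome 12 density of 0.447 of the median chromosome (0.506 as reported) and 97.1% of CpG-rich TSSs. Merged peaks gave 33.5% within 1 kb. Protein-coding TSSs gave 34.3%, 54.2% in the highest decile and 14.5% in exons. A distance of 500 bp gave 31.6%, 52.8% and 95.9% of CpG-rich TSSs, 3 kb gave 50.8%, 66.8% and 98.6%, the nearest peak edge gave 39.4%, and ranking by −log10 q gave 65.7% in the highest decile. Of 80 string ratios 73 stayed on their side of 1. The YY1 string moved from 0.948 to 1.64 in windows of 100 bp to each side, 2.05 in the highest decile and 1.27 without soft-masked bases, and the cause was not tested. Peaks rest on a median of 19 fragments, so differences of a few places in rank are not resolved.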

Other observations

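Imprinted genes, read together after *Rasgrf1* and *Peg10* were seen near the top of the list, had a summit within 1 kb of a TSS at 20 of 22, against 68.9% of protein-coding genes and 38.2% of all annotated genes. The list holds coding and noncoding genes. The highest fold reached the level of the highest decile of peaks at 10 of the 20 with a summit, which had a median of 6.69. Over all protein-coding genes with a summit 34% reached that level and the median was 5.89. *Impact* (10.4), *Mest* (10.3), *Gnas* (9.39), *Inpp5f* (8.23) and *Slc38a4* (8.17) were the highest, *Meg3* (3.41) and *Rasgrf1* (3.06) the lowest at their starts, and *Airn* and *H19* had none. The list was chosen after these values were seen and carries no test.

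The largest piles of the list were not its highest folds. The pile of 166 fragments (131 scaled) near *Pisd-ps1* on chromosome 11 stood against 94 expected, for a fold of 1.39, the second lowest rank of all. The next, 165 fragments (130 scaled) near *2610005L07Rik* on chromosome 8, stood against 32 expected, for a fold of 3.98, and its summit bases occur 4 times in the genome. At the lowest rank, 164 fragments (129 scaled) near *Sfi1* stood against 93 expected.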
